A study of Mus musculus with 18 samples.

Results

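The creatine system was followed through 7 genes, the creatine kinases Ckm, Ckmt2, Ckb and Ckmt1 and the creatine supply genes Gatm, Gamt and Slc6a8. Every probe annotated to one of these symbols was taken, whatever its signal, which gave 9 of the 45281 probes on the array and 7 of the 19057 genes with a symbol. Ckmt2 and Ckmt1 had 2 probes each and the other genes 1 each. All 9 passed the filter on low signals, which asked that 3 of the 18 arrays or more had a detection p-value under 0.05; a probe is called detected on an array at that value.

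RNA was measured on 18 Illumina bead arrays. There were 6 groups of 3 arrays, made up of the mouse labels FatK5, FatK7 and FatK1, each in 2 arms, cells given Foxd3 shRNA (shFoxd3) for 24 h and cells left untreated. All groups shared the C57Bl/6 background, an age of 17 weeks and the genotype Fapbl-Cre;Apc2lox14/+;tet-KrasLSL-G12D/+, so Cre, a floxed Apc allele and an inducible KrasLSL-G12D allele were in the untreated cells as well. Per the labels, the cells came from colon tumours, were sorted with beads carrying a CDCP1 antibody, and were maintained with Dox in both arms. The labels name 1 mouse for each mouse label and no separate cultures. P-values of tests on the 18 arrays thus measured only how the arrays of a group varied. This may be technical, though not in untreated FatK5 and untreated FatK1, whose arrays differed in sex-linked genes as given below. The test across the 3 mouse labels, on 1 mean for each label and arm, measured how the shFoxd3 difference varied between labels.

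The arrays did not all match their labels. The intestinal marker Epcam was detected on 0 of 18 arrays, Cdh17, Krt19, Krt20 and Cdx1 on 1 each, and Vil1 and Cdx2 on 2 each. Of the other listed epithelial genes, Krt8 was detected on 7 arrays, Cdh1 and Cldn7 on 11 each and Lgals4 on 18. Summed signals of 10 fast skeletal muscle markers ran from 194134 to 229846 on shFoxd3 and from 181609 to 224211 on untreated FatK5 arrays. Summed signals of 10 liver markers ran from 78822 to 92152 on shFoxd3 and from 86564 to 102477 on untreated FatK7 arrays. Summed signals of 9 brown fat markers ran from 60707 to 64368 on shFoxd3 and from 36244 to 64415 on untreated FatK1 arrays. This sum also ran from 27447 to 34997 on shFoxd3 and from 18960 to 22404 on untreated FatK5 arrays. Its brightest genes in FatK5 were Cox8b and Cox7a1, with medians of 12774 and 13001. Ucp1 was detected on 6 FatK1 arrays and 1 FatK5 array, and Elovl3 on no array of these labels. Foxd3, the target of the shRNA, was detected on 1 of 18 arrays (signal -10.3 to 16.5), and its knockdown could not be checked. The 4 Cdcp1 probes were detected on 0, 1, 4 and 2 of 18 arrays. Xist, which is made from the inactive X chromosome, lay between 665 and 1470 on 8 arrays and between -13.3 and 13.5 on the other 10. The 8 high arrays were the shFoxd3 arrays of FatK5 and FatK1 and array 2 of the untreated cells of those labels, and Eif2s3y, a Y-linked gene, was high on the other 10. The arrays of FatK5, and those of FatK1, thus held RNA of both kinds under 1 mouse label. The spread within untreated FatK5 and untreated FatK1, which entered the shared spread of the tests on 18 arrays, held this difference too. Calls of the creatine probes that change with untreated array 2 are given with and without it.

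Creatine is made in 2 steps, by Gatm, which transfers an amidino group from arginine to glycine, and Gamt, which methylates the product, and it enters cells through the transporter Slc6a8. Creatine kinases pass phosphate between ATP and creatine. The phosphocreatine so formed buffers ATP in cells with sudden demand, such as skeletal muscle, heart, brain and brown fat. Ckm is the muscle and Ckb the brain-type cytosolic enzyme, while Ckmt2 is the sarcomeric and Ckmt1 the ubiquitous mitochondrial enzyme. Gatm is best known from kidney and pancreas and Gamt from liver.

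The promoters of Ckm and Ckmt2, whose levels moved together over the arrays, and that of Ckb, whose level did not, are shown from RefSeq on GRCm38.p6, each with 300 bases around the start of the gene. Capitals mark E-boxes (CANNTG, a motif that reads the same on both strands) and the TATA box (TATAAA, either strand), and the lines give the strand of the gene.
Ckm, chr7:19410844-19411143, plus strand: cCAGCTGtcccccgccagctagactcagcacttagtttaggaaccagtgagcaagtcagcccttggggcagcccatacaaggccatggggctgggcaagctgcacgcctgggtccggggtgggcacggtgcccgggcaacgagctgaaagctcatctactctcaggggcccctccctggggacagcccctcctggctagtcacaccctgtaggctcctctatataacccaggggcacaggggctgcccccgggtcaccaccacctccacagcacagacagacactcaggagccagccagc
Ckmt2, chr13:91876836-91877135, minus strand: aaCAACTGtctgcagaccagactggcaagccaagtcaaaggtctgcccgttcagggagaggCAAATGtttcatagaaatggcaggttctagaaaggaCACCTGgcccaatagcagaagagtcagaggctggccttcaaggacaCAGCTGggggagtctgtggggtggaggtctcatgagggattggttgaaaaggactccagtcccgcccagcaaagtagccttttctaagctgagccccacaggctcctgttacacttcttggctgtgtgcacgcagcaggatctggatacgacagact
Ckb, chr12:111672289-111672588, minus strand: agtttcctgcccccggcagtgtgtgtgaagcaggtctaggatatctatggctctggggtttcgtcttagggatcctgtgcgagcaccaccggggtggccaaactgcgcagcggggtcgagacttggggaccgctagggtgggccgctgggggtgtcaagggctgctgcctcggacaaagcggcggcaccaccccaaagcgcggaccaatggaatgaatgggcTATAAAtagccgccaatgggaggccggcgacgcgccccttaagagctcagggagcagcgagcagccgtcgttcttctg
The Ckm window held 1 E-box and the Ckmt2 window 4, while the Ckb window held none and 1 TATAAA. Only these exact letters were marked as the TATA box, and the Ckm window held the similar run tatataa unmarked. Both muscle kinases had the E-box form CAGCTG, which myogenic factors can bind and which overlaps CANNTG by definition. So did 1 of the 2 windows of Ckmt1, which also held a TATA box, although Ckmt1 was near background, and the Gatm and Gamt windows held 1 CANNTG each. Of 32851 mouse promoters of this length, 72.3% held CANNTG, 16.3% held CAGCTG and 13.6% held TATAAA, so these letters are common. The mouse Ckm enhancer that is known to bind MyoD lies upstream of this window. No promoter entry matched Slc6a8.

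Ckm, the cytosolic kinase of muscle, was high in FatK5, intermediate in FatK1 and not detected in FatK7. Its signal (the deposited intensity after background subtraction) was 18318, 26176 and 23793 on shFoxd3 and 20754, 23388 and 19405 on untreated FatK5 arrays. In FatK1 it was 5695, 5413 and 1324 on shFoxd3 arrays, against 1.89, 1032 and 74.8 on untreated arrays. In FatK7 it lay between -6.33 and -2.20 on shFoxd3 and between -6.08 and 4.32 on untreated arrays, with no array detected. The order of the group means ran from both FatK5 groups, whose arrays overlapped, through shFoxd3 FatK1 and untreated FatK1 to the FatK7 groups, and untreated FatK1 overlapped untreated FatK7 because its array 1 was not detected.

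Ckmt2, which supplies phosphocreatine from the mitochondria of striated muscle, followed the same order. Its signal was 15752, 21999 and 23482 on shFoxd3 and 18406, 12801 and 18965 on untreated FatK5 arrays. In FatK1 it was 2848, 2578 and 501 on shFoxd3 arrays, against 3.42, 300 and 16.1 on untreated arrays. In FatK7 it stayed between -14.1 and 4.05 and was detected on no array. The second Ckmt2 probe gave 14189, 16690 and 17785 on shFoxd3 and 15734, 9847 and 15238 on untreated FatK5 arrays, and 1847, 1779 and 402 on shFoxd3 FatK1 arrays, against 15.6, 238 and 26.4 on untreated ones. Both probes thus gave 1 pattern.

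Ckb, the kinase of brain, smooth muscle and brown fat, was detected on all 18 arrays and was highest in FatK1. Its signal there was 3618, 3696 and 2973 on shFoxd3 and 3794, 2099 and 4501 on untreated arrays. It was 582, 1652 and 1320 on shFoxd3 and 761, 497 and 606 on untreated FatK5 arrays, and 2160, 987 and 712 on shFoxd3 and 909, 697 and 820 on untreated FatK7 arrays. The FatK5 and FatK7 groups overlapped each other, and every FatK1 array but untreated array 2 lay above every array of the other labels.

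Ckmt1, the ubiquitous mitochondrial kinase, lay near background. Its probe passed as detected on 10 of 18 arrays and reached 27.2 in FatK5 and 19.0 in FatK1. In FatK7 it read 98.3, 26.9 and -5.47 on shFoxd3 arrays, against 5.06, -0.0146 and -10.2 on untreated arrays, so that 1 array stood out. The second Ckmt1 probe was detected on 6 arrays and did not go above 18.2, and it did not show that array, with 6.28.

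The supply genes differed from the kinases and from each other. Slc6a8, the creatine transporter, was detected on all 18 arrays and was 1218, 1702 and 1669 on shFoxd3 and 1592, 1568 and 1699 on untreated FatK5 arrays. It was 296, 167 and 120 on shFoxd3 and 206, 132 and 171 on untreated FatK7 arrays, and 492, 560 and 346 on shFoxd3 and 511, 342 and 593 on untreated FatK1 arrays. The labels did not overlap, and within each label the arms did.

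Gamt, the methyltransferase of the second step, was detected on all 18 arrays and was highest in FatK7. Its signal there was 1252, 1503 and 1342 on shFoxd3 arrays, against 2508, 3231 and 2183 on untreated arrays. In FatK5 it was 231, 221 and 219 on shFoxd3 arrays, against 191, 15.8 and 105 on untreated arrays, where array 2 stood far below the other two. In FatK1 it was 93.8, 60.9 and 60.9 on shFoxd3 arrays, against 30.1, 44.7 and 19.6 on untreated arrays. On these signals the arms did not overlap in any of the 3 labels, and untreated FatK5 overlapped both FatK1 groups because of its array 2. On the normalised scale the arms of FatK5 overlapped, and those of FatK1 and FatK7 did not. On that scale, arms did not overlap for 14.1% of all probes in FatK1, 12.2% in FatK5 and 17.8% in FatK7.

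Gatm, the enzyme of the first step, was at or near background. It was detected on all FatK5 arrays at 28.6, 30.6 and 27.9 in shFoxd3 and 26.8, 33.8 and 16.6 in untreated cells. Elsewhere it was detected on 1 shFoxd3 FatK1 array, at 15.8. In FatK7, where Gamt was highest, Gatm was detected on no array.

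**Figure D1:**
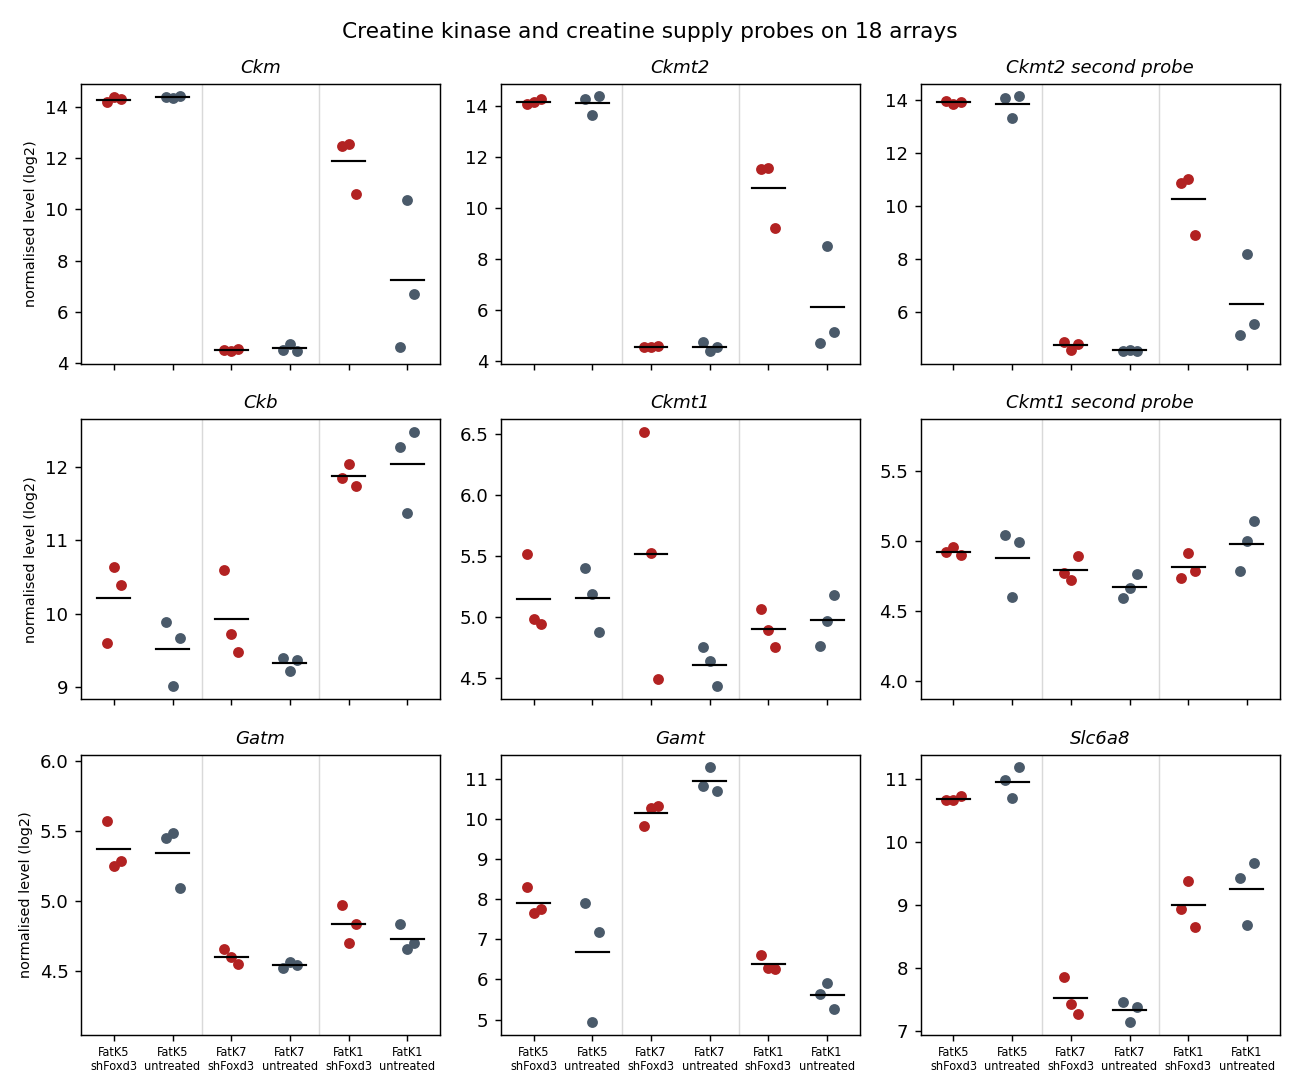
Normalised level (log2, vertical axis) of each probe on the 18 arrays, 1 panel a probe with its own scale; red points are shFoxd3 and grey points untreated arrays, and bars are means of 3 arrays. Ckm and Ckmt2 are high in FatK5, spread over FatK1 and at the floor in FatK7, Ckb is highest in FatK1, Gamt in FatK7 and Slc6a8 in FatK5.

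Differences between mouse labels were tested between untreated groups on normalised log2 levels (limma, 6 group means over 18 arrays, Benjamini-Hochberg adjustment over 24817 probes, threshold 0.05, two-sided). Between untreated FatK5 and untreated FatK1, 6 of 9 probes were called, 5 higher and 1 lower, where 42% of all probes were called, 18.8% higher and 23.2% lower. Ckmt2 was higher by 7.99 ± 0.69 log2 (SE, n = 3 each, limma adjusted p = 1.57e-08), its second probe by 7.57 ± 0.58 (limma adjusted p = 2.76e-09) and Ckm by 7.15 ± 0.84 (limma adjusted p = 1.00e-06). These 3 probes were also the members past an 8-fold difference, which 2.92% of all probes passed. Untreated FatK1 detected Ckm and the first Ckmt2 probe on 2 of 3 arrays. Slc6a8 was higher by 1.70 ± 0.23 log2 (limma adjusted p = 4.67e-06) and Ckb lower, by -2.52 ± 0.31 log2 (limma adjusted p = 1.83e-06). Gatm was at least 1.36-fold higher in FatK5 (fitted 0.61 ± 0.12 log2, limma adjusted p = 0.000399), a bound set because no untreated FatK1 array detected it. A bound of this kind compares the mean of the brighter group with, on each array of the dimmer group, the higher of the lowest signal called detected and the probe's own signal. Gamt differed by 1.07 ± 0.46 log2 and was not called (limma adjusted p = 0.0733), whereas without untreated array 2 of both labels it differed by 2.11 ± 0.27 (limma adjusted p = 5.18e-06). Without those arrays, Ckm differed by 8.73, Ckmt2 by 9.41 and its second probe by 8.80 log2. Between the shFoxd3 arms of the same labels the differences were smaller, though each was still called. They were 2.40 log2 for Ckm, 3.41 for Ckmt2 and 3.65 for its second probe. Gamt was called between those arms, higher in FatK5 by 1.52 log2 (limma adjusted p = 0.0137).

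Fast muscle markers differed between untreated FatK5 and untreated FatK1 in 10 of 10 genes tested, all higher in FatK5. Their median was 6.87 log2, beside 1.07 for the 9 creatine probes and -0.03 for all probes. Slow muscle and heart markers were higher in 7 of 7. Their part in the difference of Ckm and Ckmt2 was not tested. In these bulk samples, fewer cells of a type and less RNA per cell cannot be told apart.

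Between untreated FatK7 and untreated FatK1, 6 of 9 probes were called, 1 higher and 5 lower, where 55.9% of all probes were called, 25.1% higher and 30.8% lower. Gamt was higher by 5.32 ± 0.46 log2 (SE, n = 3 each, limma adjusted p = 1.06e-08), the only creatine probe past 8-fold here, which 4.94% of all probes passed. Ckb was lower, by -2.72 ± 0.31 log2 (limma adjusted p = 4.35e-07), and Slc6a8 by -1.93 ± 0.23 log2 (limma adjusted p = 5.71e-07). Ckm was at least 4.94-fold lower (fitted -2.65 ± 0.84 log2, limma adjusted p = 0.0119) and the second Ckmt2 probe at least 2.53-fold lower (fitted -1.74 ± 0.58 log2, limma adjusted p = 0.0151). The first Ckmt2 probe was not called (-1.56 ± 0.69 log2, limma adjusted p = 0.0625), but it was called without untreated FatK1 array 1 (-2.28 log2, limma adjusted p = 0.0101) or array 3 (-2.06 log2, limma adjusted p = 0.0283). It was also called with no background correction (-4.06 log2, limma adjusted p = 0.00453) and on the series matrix (-4.14 log2, limma adjusted p = 0.00187), settings that called 8 and 9 of the 9 probes here. Between the shFoxd3 arms of the same labels it differed by -6.21 log2 (limma adjusted p = 2.74e-07). Calls of the muscle kinases here rested on untreated FatK1 array 2. Without array 2 of untreated FatK1 and FatK5, Ckm differed by -1.09 log2 (limma adjusted p = 0.0662) and the second Ckmt2 probe by -0.79 log2 (limma adjusted p = 0.103). The second Ckmt1 probe was the remaining call, at least 1.04-fold lower near background (fitted -0.30 ± 0.12 log2, limma adjusted p = 0.0404), and it was lost without untreated FatK7 array 1 (limma adjusted p = 0.125) or 2 (limma adjusted p = 0.0863), or untreated FatK1 array 2 (limma adjusted p = 0.0862) or 3 (limma adjusted p = 0.174). Median scaling, no filter and a constant prior variance ended that call too (limma adjusted p from 0.0571 to 0.0673), and between the shFoxd3 arms the probe differed by -0.02 log2 (limma adjusted p = 0.916). Liver markers were higher in 8 of 9 genes tested, with a median of 7.71 log2, and their part in the difference of Gamt was not tested. Brown fat markers were lower in 7 of 8 and general fat markers in 4 of 4, and their part in the difference of Ckb was not tested either.

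Between untreated FatK5 and untreated FatK7, 6 of 9 probes were called, 5 higher and 1 lower, where 63.6% of all probes were called, 32.8% higher and 30.8% lower. Ckm was at least 703-fold higher (limma adjusted p = 5.81e-09), Ckmt2 at least 576-fold (limma adjusted p = 4.69e-10) and its second probe at least 481-fold (limma adjusted p = 4.84e-11), since no FatK7 array detected them. Slc6a8 was higher by 3.62 ± 0.23 log2 (SE, n = 3 each, limma adjusted p = 5.22e-11) and Gatm at least 1.34-fold (limma adjusted p = 1.18e-05). Gamt was lower, by -4.25 ± 0.46 log2 (limma adjusted p = 1.73e-07). Ckb differed by 0.19 ± 0.31 log2 and was not called (limma adjusted p = 0.604). The transporter was thus high in the label with the muscle kinases, and the methyltransferase in the label without them. Of the 9 probes, 5 were called and past 8-fold, against 7.45% of all probes. Without array 2 of untreated FatK1 and FatK5, the second Ckmt1 probe was called as well, at 0.35 ± 0.12 log2 near background (limma adjusted p = 0.0203), against 0.20 ± 0.12 (limma adjusted p = 0.150) with it.

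**Figure D2:**
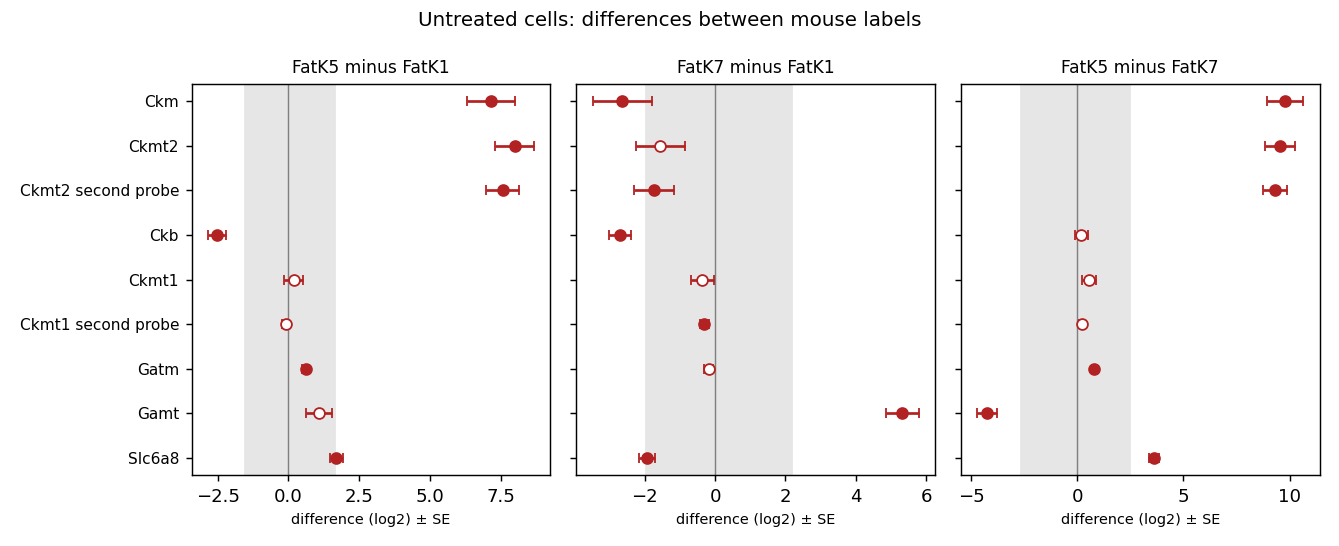
Difference of untreated groups (log2, horizontal axis, with SE) for each probe, in 3 panels: FatK5 minus FatK1, FatK7 minus FatK1 and FatK5 minus FatK7. Filled points passed the threshold and the grey band runs from percentile 5 to percentile 95 of all 24817 probes. Ckm and both Ckmt2 probes lie far to the right in the panels with FatK5, and Gamt lies outside the band in both panels with FatK7.

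In FatK1, shFoxd3 cells had more Ckm and Ckmt2 RNA than untreated cells, and no other creatine probe was called. Of the 9 probes, 3 were called, all higher, where 0.737% of all probes were called and 0.58% were called higher. All 3 were past 8-fold, as were 0.169% of all probes. Ckm was higher by 4.65 ± 0.84 log2 (SE, n = 3 each, limma adjusted p = 0.00920), Ckmt2 by 4.65 ± 0.69 (limma adjusted p = 0.00169) and the second Ckmt2 probe by 3.97 ± 0.58 (limma adjusted p = 0.00130). Gamt differed by 0.78 ± 0.46 log2 (limma adjusted p = 0.644), Slc6a8 by -0.26 ± 0.23 (limma adjusted p = 0.798) and Ckb by -0.16 ± 0.31 (limma adjusted p = 0.947), and none of them was called. The median over the 9 probes was 0.11 log2, beside -0.02 over all probes. On the normalised scale the arms did not overlap for 4 of 9 probes, Gamt being the fourth, as was so for 14.1% of all probes.

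The FatK1 arrays that were high in Ckm and Ckmt2 were those high in fast muscle markers. The 10 fast muscle markers summed to 91245, 88872 and 28846 on shFoxd3 arrays, against 86.1, 21885 and 1844 on untreated arrays. Ranked from high to low, the 6 arrays stood in 1 order for this sum, for Ckm and for both Ckmt2 probes: shFoxd3 arrays 1, 2 and 3, then untreated arrays 2, 3 and 1. Of the 10 fast muscle markers 7 were called higher, with a median of 4.54 log2, among them Mylpf, a fast myosin light chain, at 5.11 ± 0.85 (limma adjusted p = 0.00502) and Pvalb, a calcium buffer of fast fibres, at 4.99 ± 0.72 (limma adjusted p = 0.00120). The slow muscle and heart list summed to 908 to 11125 on shFoxd3 and 6.89 to 5011 on untreated arrays, with none of 7 genes called. Its order differed, with untreated array 2 (5011) above shFoxd3 array 3 (908). Ckb and Slc6a8 did not follow the order of the fast muscle sum either. By signal, both were lowest on untreated array 2, where the brown fat sum was lowest too, at 36244. On the normalised scale Slc6a8 was lowest on shFoxd3 array 3, at 8.66 log2, beside 8.69 on untreated array 2. The part of the muscle markers in the rise of Ckm and Ckmt2 was not tested.

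The size of these differences changed with untreated array 2. An alternative added after the values were seen left out untreated arrays 1 and 3 of FatK1 and FatK5, and the lone array 2 was then assumed to vary like the other groups. Ckm was then higher by 1.53 ± 0.49 log2 and not called (limma adjusted p = 0.104). Ckmt2 was higher by 2.27 ± 0.60 (limma adjusted p = 0.0483) and its second probe by 2.09 ± 0.54 (limma adjusted p = 0.0420). With array 2 left out instead, Ckm was higher by 6.24 ± 0.49 (limma adjusted p = 4.50e-07), Ckmt2 by 5.88 ± 0.45 (limma adjusted p = 3.86e-07), and the second Ckmt2 probe by 4.95 ± 0.40 (limma adjusted p = 5.69e-07). The muscle markers moved with that array too: 10 of 10 fast markers were called without it (median 6.06 log2) and 3 of 10 against it alone (median 0.98 log2), and the slow muscle and heart list had 5 of 7 called (median 4.63) without it and none (median -0.25) against it alone. Without array 2, the shFoxd3 arrays of FatK1 had high Xist and the untreated arrays did not, so the treatment and the source of the cells cannot be told apart. Leaving out single arrays, Ckm also missed the threshold without shFoxd3 array 1 (4.36 log2, limma adjusted p = 0.0747), shFoxd3 array 2 (4.32, limma adjusted p = 0.0732) or untreated array 3 (4.39, limma adjusted p = 0.0677), whereas both Ckmt2 probes were called in each of the 18 repeats.

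**Figure D3:**
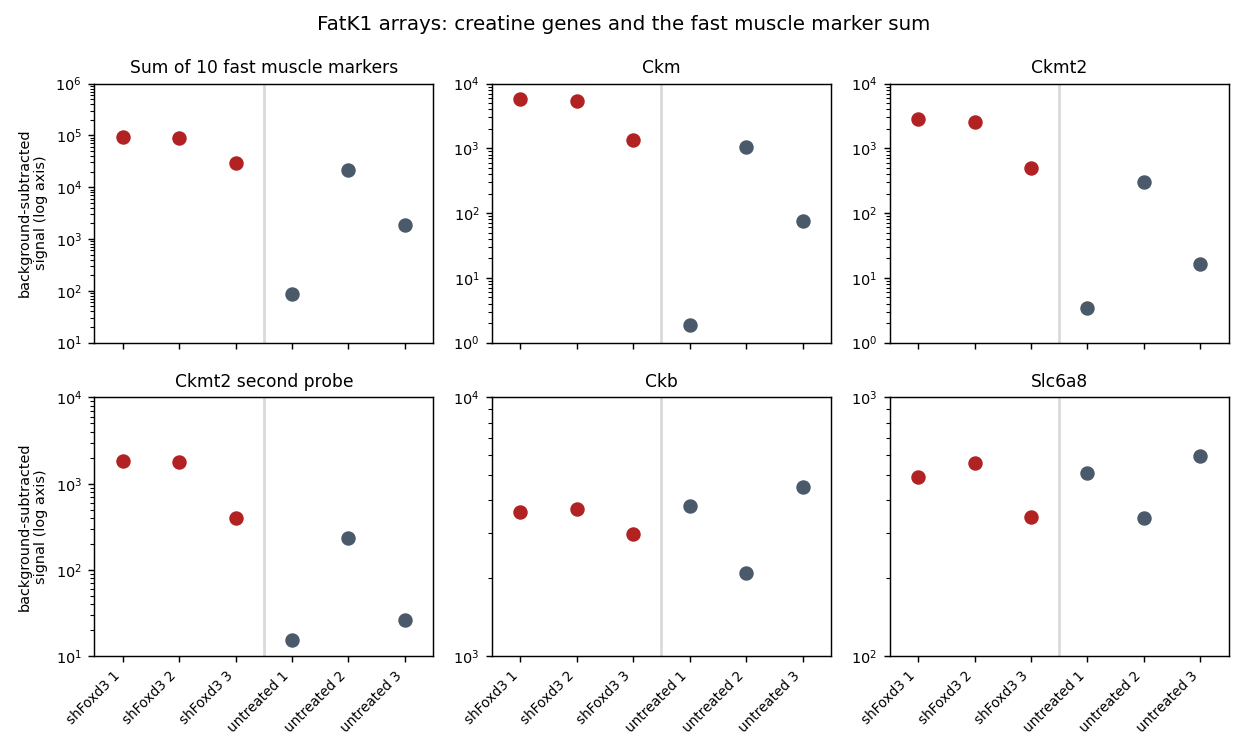
Background-subtracted signal on a log axis for the 6 FatK1 arrays, red for shFoxd3 and grey for untreated, in 1 panel each for the sum of 10 fast muscle markers, Ckm, the Ckmt2 probes, Ckb and Slc6a8. The muscle sum, Ckm and Ckmt2 share 1 order of arrays, with untreated array 2 closest to the shFoxd3 arrays, and Ckb and Slc6a8 are lowest on that array.

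In FatK5, where the muscle kinases were highest, shFoxd3 and untreated cells did not differ past the threshold in any of the 9 probes, where 0.25% of all probes were called. By limma, 2 of the 9 had an unadjusted p below 0.05, as had 10.8% of all probes. Ckm differed by -0.10 ± 0.84 log2 and Ckmt2 by 0.07 ± 0.69. Fast muscle sums of the arms overlapped, and none of the 10 markers was called. Gamt differed by 1.23 ± 0.46 log2 (SE, n = 3 each, limma adjusted p = 0.327) and Ckb by 0.69 ± 0.31 (limma adjusted p = 0.435). The Gamt difference rested on untreated array 2: it was 0.36 ± 0.25 (limma adjusted p = 0.712) without that array and 3.03 ± 0.28 (limma adjusted p = 2.93e-05) against that array alone, again with the lone array assumed to vary like the other groups. On the normalised scale the arms overlapped for all 9 probes, against 12.2% of all probes whose arms did not.

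In FatK7, none of the 9 probes was called, where 0.83% of all probes were called, and by limma 1 of the 9 had an unadjusted p below 0.05, as had 9.4% of all probes. That probe was Ckmt1, with a fitted difference of 0.91 ± 0.32 log2 (SE, n = 3 each, limma adjusted p = 0.299). Its bound on the means, 1.5-fold higher in shFoxd3 cells, takes no account of spread. Of the shFoxd3 arrays, 1 was undetected, at -5.47, and 1 read 98.3. The second Ckmt1 probe differed by 0.12 ± 0.12 log2 (limma adjusted p = 0.902). Gamt differed by -0.79 ± 0.46 log2 (limma adjusted p = 0.674) and Ckb by 0.60 ± 0.31 (limma adjusted p = 0.589). On the normalised scale 3 of 9 probes had arms that did not overlap, Ckb and the second Ckmt2 probe higher and Gamt lower, as had 17.8% of all probes, though Ckmt2 was detected in neither arm. Liver marker sums of the arms overlapped, with none of 9 genes called. Of the macrophage markers 2 of 5 were called higher in shFoxd3 cells (median 0.82 log2), and of the red cell markers 1 of 3. The macrophage sum was 10181, 5195 and 5158 on shFoxd3 arrays, against 5770, 4254 and 4899 on untreated arrays, and was thus highest on shFoxd3 array 1, the array with the highest Ckmt1 and Ckb. Their part in these values was not tested.

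Across the 3 mouse labels, tested on 6 profiles with treatment and mouse as terms, none of the 9 probes was called, where 0.105% of all probes were called, and by limma 0 of 9 had an unadjusted p below 0.05, as had 5.73% of all probes. Ckmt2 differed by 1.57 ± 0.85 log2, Ckm by 1.50 ± 0.87 and Ckb by 0.38 ± 0.17 (SE, n = 3 labels, limma adjusted p = 0.790 for each). Within FatK5 and FatK7 the differences of Ckm and of the first Ckmt2 probe lay between -0.10 and 0.07, so these averages rested on FatK1. The median of the 9 probes was 0.38 log2, beside -0.01 over all probes. Gamt was higher in shFoxd3 cells of FatK5 and FatK1 and lower in those of FatK7, by values that were called in none.

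Whether the shRNA difference itself varied between labels was tested as the treatment by mouse interaction. None of the 9 probes was called, where 0.218% of all probes were called, and by limma 4 of 9 had an unadjusted p below 0.05, as had 10.4% of all probes. The Ckmt2 probes came closest (limma adjusted p = 0.0553 for each), followed by Ckm (limma adjusted p = 0.136) and Gamt (limma adjusted p = 0.351). Without array 2 of untreated FatK1 and FatK5, 4 of 9 were called, where 1.01% of all probes were, with Ckm and Ckmt2 at a limma adjusted p of 3.75e-05 each, the second Ckmt2 probe at 5.51e-05 and Gamt at 0.0256. In that setting the shFoxd3 arrays of FatK5 and FatK1 had high Xist and their untreated arrays did not, whereas Xist was low in both arms of FatK7. A difference between labels in the response and 1 in the source of the cells thus cannot be told apart there.

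**Figure D4:**
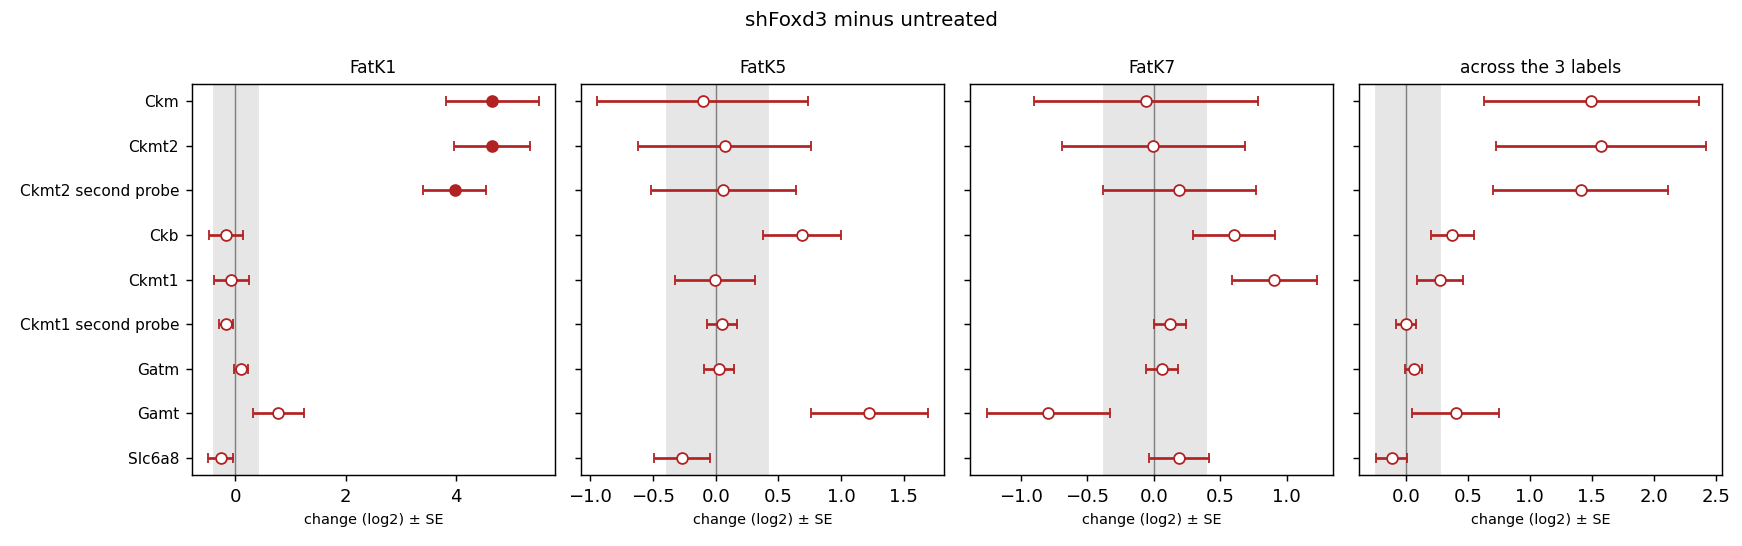
Difference of shFoxd3 minus untreated cells (log2, horizontal axis, with SE) for each probe in FatK1, FatK5, FatK7 and across the 3 labels. Filled points passed the threshold, which only Ckm and the Ckmt2 probes in FatK1 did, and the grey band runs from percentile 5 to percentile 95 of all 24817 probes.

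The genes whose levels ran most like each kinase or supply gene over the 18 arrays were named by Pearson's r on normalised log2 levels, among 20264 probes. The arrays share mouse labels, so r describes mainly the differences between labels and has no p. Ckm ran closest to Tnnt3, Tpm2 and Myl1, all of the contractile apparatus, with r of 0.999, 0.998 and 0.998. Ckmt2 ran closest to Rpl3l, a muscle ribosomal protein, and to the muscle glycolytic enzymes Eno3 and Pgam2, with r of 0.998 each. For Slc6a8 the closest were Etl4, Smtn and Camta1, with r from 0.983 to 0.988, for Gamt Olfml1, Igf1 and Aard, from 0.967 to 0.982, and for Ckb Kctd12, Tax1bp3 and Ntrk2, from 0.954 to 0.977. Above an r of 0.95 stood 278 genes for Slc6a8, 116 for Ckmt2, 62 for Ckm, 15 for Gamt and 3 for Ckb. Gatm, near background, had Tmem132a, Klhl8 and Ksr1 (0.965 to 0.967), and Ckmt1 had none above 0.95, with Cfap69 at 0.817.

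Of the genes around creatine metabolism, 25 were on the array and 24 were tested, and their patterns over the labels were mixed. Between untreated FatK5 and untreated FatK1, 10 of the 24 were higher and 5 lower, between untreated FatK7 and untreated FatK1 14 were higher and 7 lower, and between untreated FatK5 and untreated FatK7 8 were higher and 16 lower, against the all-probe shares of 18.8% and 23.2%, 25.1% and 30.8%, and 32.8% and 30.8% given above. The medians were 0.04, 1.62 and -2.10 log2, beside -0.03, -0.08 and 0.05 over all probes.

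Of the nucleotide-handling genes, Ak1, the cytosolic adenylate kinase of muscle, averaged 9276 ± 694 in shFoxd3 and 7128 ± 1129 in untreated FatK5 cells, and 1328 ± 462 in shFoxd3 and 627 ± 56.2 in untreated FatK1 cells (signal, SD, n = 3 each), and was at background in FatK7. Slc25a4, the ADP/ATP carrier of heart and muscle, averaged 1095 ± 316 in shFoxd3 and 737 ± 96.4 in untreated FatK5 cells and was not detected in FatK7. Its more widely expressed relative Slc25a5 ran the other way, with 2543 ± 335 in shFoxd3 and 2366 ± 78.2 in untreated FatK5 cells, and 11320 ± 732 in shFoxd3 and 13870 ± 817 in untreated FatK7 cells. Ampd1, the AMP deaminase of muscle, was the only one of the 24 genes called between the arms of FatK1, higher by 3.44 ± 0.61 log2 (limma adjusted p = 0.00785). Without untreated array 2 it was higher by 4.56 ± 0.39 (limma adjusted p = 9.61e-07), and against that array alone by 1.27 ± 0.48 (limma adjusted p = 0.172). It averaged 758 ± 428 in shFoxd3 and 92.8 ± 141 in untreated FatK1 cells. None of the 24 was called between the arms of FatK5 or FatK7 or across the labels.

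Of the 5 methyl supply genes, 4 were higher and 1 lower in untreated FatK7 than in untreated FatK1 cells. The lower one was Mat2b, a regulatory subunit of S-adenosylmethionine synthetase, at -1.38 ± 0.18 log2 (SE, n = 3 each, limma adjusted p = 2.03e-06). Mat1a, the S-adenosylmethionine synthetase of liver, averaged 19540 ± 459 in shFoxd3 and 21630 ± 1787 in untreated FatK7 cells, and no more than 10.2 elsewhere. Gnmt, a glycine methyltransferase that draws on the same methyl donor, averaged 8187 ± 392 in shFoxd3 and 11320 ± 325 in untreated FatK7 cells. Its untreated FatK5 mean, 268 ± 412, had an SD above the mean, and its highest FatK5 array read 742. Arg1, which splits the arginine that Gatm also uses, averaged 15290 ± 1456 in shFoxd3 and 17260 ± 560 in untreated FatK7 cells and was at background elsewhere. Alpl, a phosphatase known to act on phosphocreatine in fat mitochondria, averaged 225 ± 31.8 in shFoxd3 and 276 ± 57.5 in untreated FatK7 cells, against 43.2 ± 5.70 in shFoxd3 and 37.7 ± 10.2 in untreated FatK1 cells. In FatK5 it averaged 147 ± 101.5 in shFoxd3 and 39.9 ± 23.4 in untreated cells. Its highest FatK5 array, at 245.6, lay within the FatK7 range of 189 to 341. The transporter Slc6a6, which carries taurine, averaged 3236 ± 1121 in shFoxd3 and 3074 ± 255 in untreated FatK7 cells, against 982 ± 106 in shFoxd3 and 719 ± 119 in untreated FatK1 cells.

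**Figure D5:**
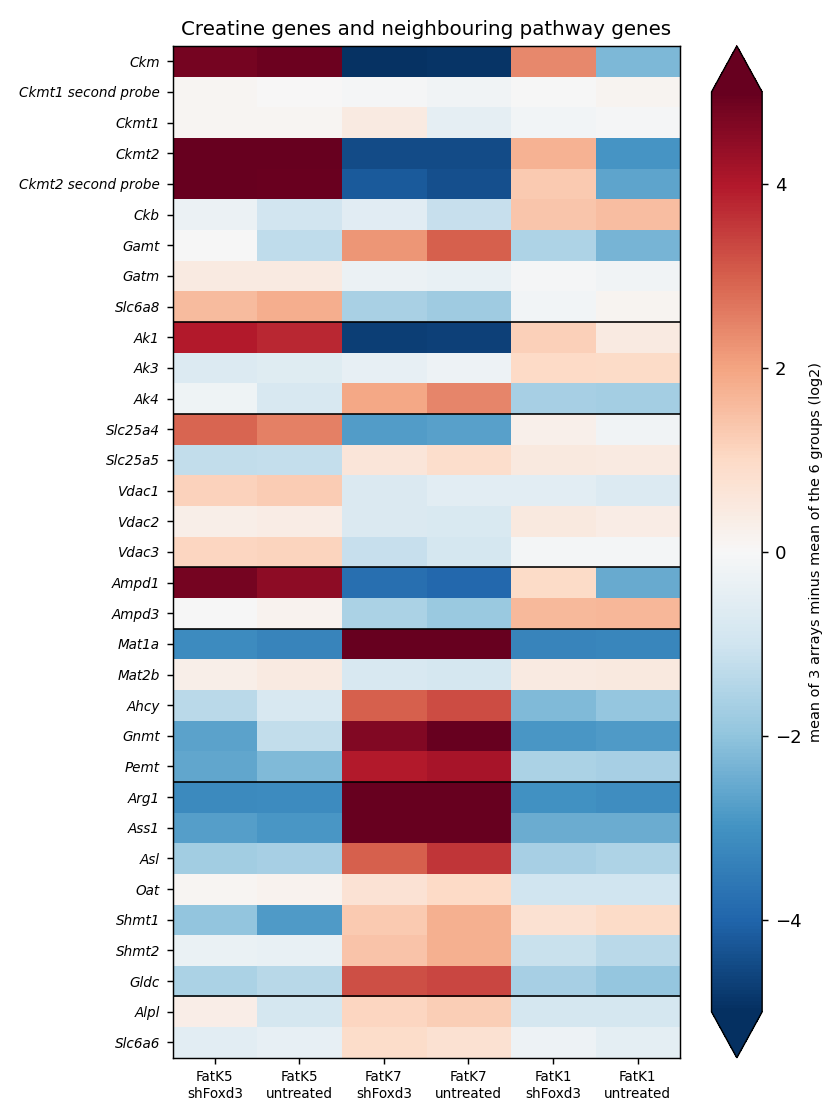
Normalised group means of the creatine probes (top block) and of neighbouring pathway genes by list (blocks below), each row centred on its mean over the 6 groups, in log2 colour steps. Red marks groups above and blue groups below the row's mean. Ak3 and Ampd3 are highest in FatK1, and Slc25a5 is above its mean in both FatK7 and FatK1. Ak1, Slc25a4 and Ampd1 share the FatK5 and FatK7 colours of Ckm, and Mat1a, Gnmt, Pemt, Arg1, Ass1 and Gldc share the FatK7 colour of Gamt. In both FatK5 groups these genes lie below their row means, whereas Gamt in shFoxd3 FatK5 lies near its own.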

How the data were processed

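RNA was read on 18 Illumina mouse bead arrays, 3 for each mouse label and arm. Per the labels' protocols, RNA from TRIzol was cleaned on RNeasy columns, then amplified to biotinylated cRNA (Ambion). The deposited table gave a background-subtracted signal intensity and a detection p-value for each probe. Between 23.2% and 30.9% of an array's deposited intensities lay below 0, and 17289 to 19993 probes were detected. A deposited series matrix held the same intensities, each times 1 of 18 factors between 0.733 and 1.53, and served as an alternative. Which software the authors used is not given in the sources used here.

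The function neqc (limma 3.58.1, offset 16, R 4.3.3, statmod 1.5.0) corrected the background, quantile normalised the arrays and took log2. Tests covered the 24817 probes detected (p under 0.05) on 3 arrays or more. Models (lmFit, eBayes with a trended prior variance) held 6 group means over 18 arrays, or 6 mouse and arm profiles with mouse as a block. Their recovery was checked on simulated data with independent noise and the same change in every label. The simulation held no split in Xist within a group, so it does not cover the mixed arrays of FatK5 and FatK1. The number of arrays limits the precision. A call is a Benjamini-Hochberg adjusted p below 0.05 over all tested probes, two-sided. Same-numbered arrays of the 2 arms of a label correlated above 0.1 in 6 of 9 pairs (r from -0.02 to 0.26). In 7 of 9, the shFoxd3 array correlated best with the untreated array of its own number. The numbers were not taken as pairs, and a replicate block by array number was run as an alternative. No array repeated another.

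Of all probes 34885 had 1 gene symbol, 18 several and 10378 none, from the platform annotation supplied, and 34807 matched RefSeq genes of GRCm38.p6 by Entrez identifier. A gene outside the creatine probes stands by its brightest probe. By the rule for named genes, every creatine probe was named, with the 3 closest genes by r and up to 3 genes of each neighbouring list by the range of group means. On the array, 45 probes had irregular values (over 7 digits, or a detection p-value off its grid of 936 steps), among them 0 of the 9. The genes and the marker and pathway lists were chosen with earlier results of these data known. Marker lists were brown fat, fat in general, fast muscle, slow muscle and heart, smooth muscle, liver, kidney tubule, exocrine pancreas, intestinal epithelium, neuron and glia, macrophage and red cell. Apart from those named in the results, marker lists had no gene called between the arms of FatK1. Figures were drawn with matplotlib 3.10.9 under Python 3.11.15.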

Additional observations from a re-analysis of the deposited data

How the results depend on the processing

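In FatK1, 3 creatine probes were called, and 0 when only probes detected on all 18 arrays were tested, since Ckm and Ckmt2 were then not among them. In FatK5 the count was 0, and 1 (Gamt) against untreated array 2 alone, an alternative added after the values were seen in which that array is assumed to vary like the other groups. The interaction had 0 calls, 2 with median scaling, 2 with an offset of 50, 2 with no filter, 3 with the array number as a replicate block, and 4 without array 2 of untreated FatK1 and FatK5. Testing only probes detected on all 18 arrays left 2 of 6 calls between untreated FatK5 and FatK1, 3 of 6 between untreated FatK7 and FatK1 and 2 of 6 between untreated FatK5 and FatK7, and leaving out array 2 left 3 of 6 between FatK7 and FatK1. When single arrays were left out, the counts ranged from 0 to 1 in FatK5 and in FatK7, from 0 to 3 for the interaction and from 3 to 7 between untreated FatK7 and FatK1. The call of 1 was Gamt in FatK5 without untreated array 1 (1.84 log2, limma adjusted p = 0.0446) and Ckmt1 in FatK7 without shFoxd3 array 3 (1.42 log2, limma adjusted p = 0.00568). The Ckm call in FatK1 was also lost with no background correction (5.95 log2, limma adjusted p = 0.0780). No called value of the 9 probes changed sign in any alternative. The array numbers were not taken as pairs, and the replicate block changed no other count of creatine probes. Over all probes, calls in FatK1 moved from 183 to 36 (detected on all 18 arrays), 298 (replicate block), 337 (without array 2), 1042 (array 2 alone) and 66 to 388 (single arrays left out). In FatK5, 62 became 38, 1600 (array 2 alone) and 22 (without irregular probes), and 57 to 267 with single arrays left out. In FatK7, 206 became 56 (all 18 arrays), 60 (series matrix), 83 (no background correction), 127 (without irregular probes), 322 (offset of 50) and 93 to 371. The interaction's 54 became 11 (all 18 arrays), 19 (series matrix), 30 (no background correction), 145 (replicate block), 245 (without array 2) and 15 to 228. Across mice, 26 became 41 (no filter), 10 (all 18 arrays), 0 (without irregular probes), 0 (no mouse block), 14 (without FatK5) and 52 (without FatK7). Between untreated labels, 10415 became 6843 (series matrix) and 6499 (all 18 arrays) for FatK5 and FatK1, 13866 became 7571 and 15786 became 8096 (all 18 arrays) for the others. Unless stated, the cause was not tested. The slide as a block was not run, because the headers name none. Signals near background limit Ckmt1 and Gatm everywhere, and Ckm and Ckmt2 in FatK7.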
